A study of Mus musculus with 8 samples.

Results

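The glycolytic and hypoxia-inducible genes described here are 36 genes of the mouse, a list of named genes of these pathways drawn up with earlier results of these data known. Their symbols matched 37 of the 15288 rows of the count table, because the aldolase gene Aldoa had 2 rows. They fall into 19 glycolytic members, 2 pyruvate dehydrogenase kinases, 13 other targets of the hypoxia-inducible factors (HIF) and 2 HIF alpha subunits. Every member passed the filter on low counts, which kept 14024 genes. The second row of Aldoa held 20 to 65 counts per library and was kept apart from the main row.

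The RNA came from IMCD, a cell line from the inner medullary collecting duct of the mouse kidney, the segment in which urine is finally concentrated and the surrounding salt can be very high. Bulk RNA was sequenced as 8 libraries, numbered 1 to 8 by the submitters. Both groups were cells of that 1 line, grown in DMEM rich in glucose with 10% FBS and antibiotics to about 90% confluence, then held for 12 h in DMEM free of FBS, before extraction with Trizol. The control group (control 1 to 4) received no added salt, and the NaCl group (NaCl 5 to 8) received 100 mmol NaCl, an amount the labels give without a volume. The labels do not say whether libraries of a group came from separate cultures or what the library number stands for, so p-values measure only the spread between these libraries, which may be technical.

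Glycolysis splits glucose to pyruvate in the cytosol, and lactate dehydrogenase turns pyruvate to lactate. HIF is a pair of proteins: an oxygen-sensitive alpha subunit (HIF-1alpha from Hif1a, HIF-2alpha from Epas1) and a constant partner. When oxygen is plentiful, prolyl hydroxylases mark the alpha subunit for destruction, so HIF activity is set largely at the protein level, which RNA does not show. Without oxygen the pair binds a short DNA element near its target genes and raises most glycolytic enzymes, the glucose transporter, Pdk1 and genes of mitophagy, angiogenesis and collagen folding. The renal medulla is poor in oxygen, and its collecting duct relies much on glycolysis.

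Total counts ranged from 35.29 M in NaCl 5 to 47.57 M in control 1, and the other 6 libraries lay between 41.37 and 42.73 M. Levels are given as CPM, counts scaled to the same TMM-adjusted library total, and levels between genes as TPM, which also divides by gene length. The lowest level of any member was that of Egln3 in NaCl 5, at 6.72 CPM or 241 counts. Of the markers of a collecting duct, Aqp2 averaged 0.0241 CPM in control and 0.305 CPM in NaCl libraries, and Cdh1 0.195 and 0.535 CPM, while the renal epithelial genes Cdh16, Pax2 and Pax8 stood at 639, 78.8 and 159.6 CPM in control libraries. The water channel Aqp2, which defines principal cells, thus had 0 to 3 counts in each control and 8 to 15 in each NaCl library. Of the fibroblast markers the collagen genes Col1a1, Col1a2 and Col3a1 stood at 2492, 434 and 381 CPM in control libraries. In NaCl libraries they stood at 2148, 406 and 459 CPM. Pdgfrb, Dcn and Pdgfra stood at 37.5, 15.8 and 2.38 CPM in control libraries.

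The core of the element that HIF binds, written here as ACGTG or GCGTG on either strand, was looked for in RefSeq promoter windows of build GRCm38.p6, from 250 bases before to 50 after each start. The windows of 33 members were found, and Ndrg1, Epas1 and Bnip3l were not matched. A core was held by at least 1 window of 31 of these 33 members (93.94%), and by 46.73% of the 27025 genes in the table. By window the shares were 78.43% of 51 and 43.77% of 32851, and the median GC content was 63% in the members' windows and 52.67% in all windows. Neither Gpi1 nor Tpi1 held a core. These letters describe a window and are no evidence of binding. The 150 bases before the RefSeq start are shown for the 3 HIF targets with steep gradients and a window, for the glycolytic member with the steepest gradient, and for the alpha subunit that rose with NaCl, with each core in capitals. The stretches lie at chr7:138909507-138909656, minus strand (Bnip3), chr14:45318573-45318722, minus strand (Ero1a), chr8:45999851-46000000, minus strand (Ankrd37), chr7:34230337-34230486, minus strand (Gpi1) and chr12:73907717-73907866, plus strand (Hif1a). CACGTG holds a core on each strand. Those of Ero1a, Ankrd37 and Hif1a lie inside the gene as GENCODE M21 draws it, which has further starts upstream, and the ends of those of Bnip3, Ero1a and Ankrd37 overlap a first exon of GENCODE. The RefSeq start of Hif1a lies a little before the nearest GENCODE start, and the bases just after it were not found in a GENCODE transcript of the gene.
Bnip3: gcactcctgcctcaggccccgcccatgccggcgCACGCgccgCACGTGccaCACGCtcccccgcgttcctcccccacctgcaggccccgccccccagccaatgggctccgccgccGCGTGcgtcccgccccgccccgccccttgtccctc
Ero1a: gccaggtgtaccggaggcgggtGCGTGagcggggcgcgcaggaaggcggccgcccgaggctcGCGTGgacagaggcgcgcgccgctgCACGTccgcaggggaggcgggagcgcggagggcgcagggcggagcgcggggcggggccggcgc
Ankrd37: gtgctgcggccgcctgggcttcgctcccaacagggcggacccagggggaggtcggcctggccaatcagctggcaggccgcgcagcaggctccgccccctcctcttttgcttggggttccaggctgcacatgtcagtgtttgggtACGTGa
Gpi1: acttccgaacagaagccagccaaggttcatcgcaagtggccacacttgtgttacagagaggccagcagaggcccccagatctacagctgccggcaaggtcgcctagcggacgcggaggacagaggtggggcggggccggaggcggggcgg
Hif1a: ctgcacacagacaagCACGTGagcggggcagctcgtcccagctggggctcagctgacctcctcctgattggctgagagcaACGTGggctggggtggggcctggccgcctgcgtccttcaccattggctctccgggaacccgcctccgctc
There are 4 runs in capitals before the start of Bnip3, 3 before that of Ero1a, 2 before that of Hif1a, 1 before that of Ankrd37 and none before that of Gpi1, although Gpi1, like the HIF targets shown, was higher in the later libraries of each group. A core was also held by all 11 matched members without a called gradient and by 20 of the 22 with one.

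NaCl against control was the comparison of the study, which asked how these cells respond to hypertonic stress. Few members changed: Hif1a and the muscle-type phosphofructokinase Pfkm rose, and Pfkfb4, Pdk3 and the collagen prolyl hydroxylase subunit P4ha1 fell. The other 31 were not called at an adjusted p under 0.05 (edgeR quasi-likelihood test, Benjamini-Hochberg over all genes). Of all tested genes 16.9% were called higher and 17.2% lower, so 5 called members of 36 (13.89%) is a smaller share than in the whole table. Among the glycolytic members 1 was higher and 1 lower, with a median log2 fold change (NaCl over control) of -0.05. Among the other HIF targets none was higher and 1 was lower, with a median of -0.15, and the median of all tested genes was 0.0029. Without NaCl 5 both medians lay above 0 (0.074 and 0.0015), and Hk1 and Aldoc were also called higher, which made 3 glycolytic members; without control 4 the glycolytic median was 0.0055. In 28 of the 36 members the log2 fold change was below 0, against 6951 of 14024 genes. In bulk RNA, fewer cells with a transcript and less of it per cell cannot be told apart.

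**Figure D1:**
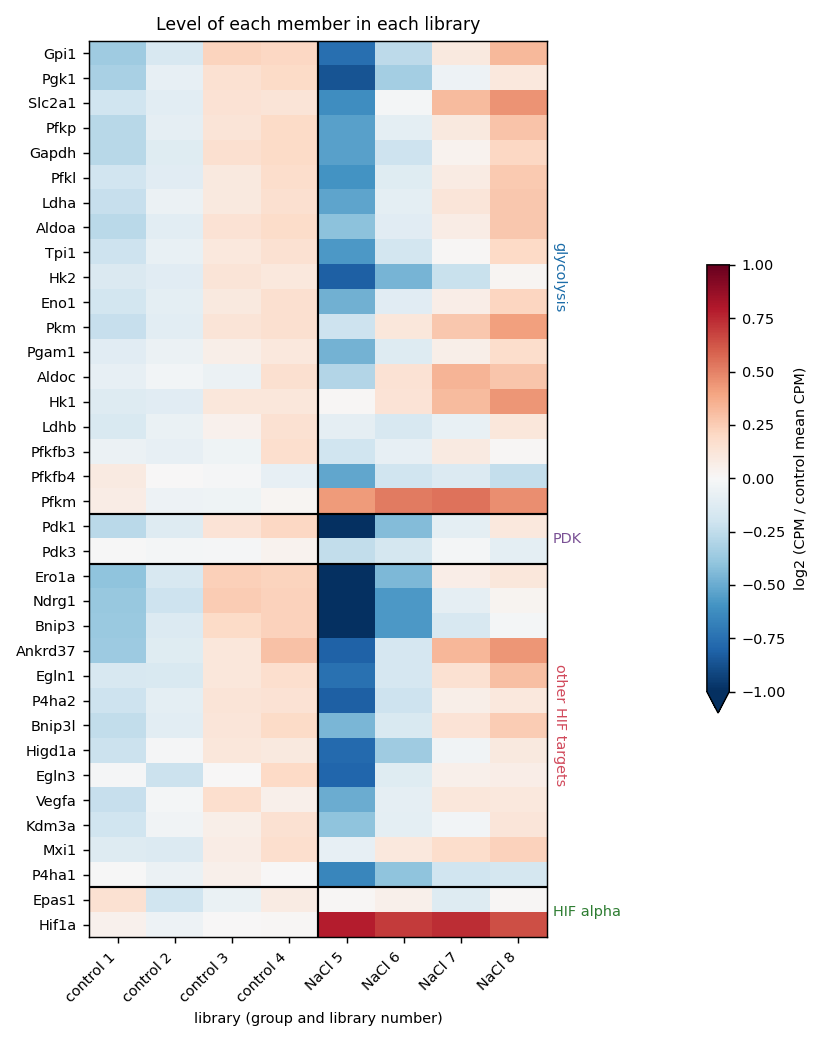
Level of each member in each library as log2 of its CPM over the mean of the 4 control libraries, blue below and red above that mean, with members ordered by slope inside each class (colours end at -1, reached by 4 members in NaCl 5). NaCl 5 is the palest or bluest NaCl library for most rows, Hif1a and Pfkm are red in all 4 NaCl libraries, and most rows turn from blue to red from library 1 to 4 and again from 5 to 8.

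Hif1a (chromosome 12, 73901375 to 73947530, plus strand, GRCm38) encodes the oxygen-sensitive subunit of HIF-1. It stood at 273, 255, 265 and 267 CPM in control 1 to 4 and at 456, 431, 441 and 414 CPM in NaCl 5 to 8. The groups did not overlap: the lowest NaCl library, NaCl 8, was well above the highest control library, control 1. The log2 fold change was 0.72 ± 0.04 (SE), or 1.64-fold, with an adjusted p of 2.54e-10. Epas1 (chromosome 17, 86753700 to 86833410, plus strand), the alpha subunit of HIF-2, stood at 17.4, 13.6, 14.9 and 16.5 CPM in control and at 15.7, 16.2, 14.3 and 15.7 CPM in NaCl libraries. Its groups overlapped, and the log2 fold change of -0.01 ± 0.08 was not called (adjusted p = 0.93). Per length, Hif1a made up 94.2% ± 0.458 (SD, n = 4) of the transcripts of both subunits in control and 96.4% ± 0.264 in NaCl libraries, without overlap. Hif1a RNA rose with NaCl, while none of the 13 other HIF targets was called higher, and the protein was not measured.

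Pfkm (chromosome 15, 98092589 to 98132451, plus strand) encodes 1 of the subunits of phosphofructokinase, the main control point of glycolysis. It stood at 115, 106, 106 and 111 CPM in control 1 to 4 and at 147, 156, 159 and 151 CPM in NaCl 5 to 8, again without overlap. The log2 fold change was 0.49 ± 0.04 (1.40-fold), with an adjusted p of 5.45e-08. The liver-type and platelet-type subunits, Pfkl and Pfkp, had log2 fold changes of -0.06 ± 0.20 and -0.03 ± 0.20 (adjusted p = 0.848 and 0.923). Pfkl took 61.2% ± 1.31 of the length-scaled counts of the family in control and 55.6% ± 3.67 in NaCl libraries, with every NaCl library below every control library. The share of Pfkm was 19.6% ± 2.32 and 26.7% ± 4.68 and its groups overlapped, since NaCl 8 at 21.7% lay below control 1 at 22.7%. Part of Pfkm (10.75% of its exon bases) is overlapped by Senp1 and Gm26513, which are also in the table.

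The 3 members that fell changed little. Pfkfb4, a bifunctional enzyme that makes or removes the activator of phosphofructokinase, stood at 11.0, 10.3, 10.2 and 9.74 CPM in control and at 7.20, 9.01, 9.38 and 8.74 CPM in NaCl libraries. P4ha1, a catalytic subunit of the enzyme that hydroxylates prolines of collagen, stood at 469.5, 453, 489 and 473 CPM in control and at 300.1, 356, 409 and 418 CPM in NaCl libraries. Neither gene's groups overlapped, and NaCl 5 was the lowest library for both. Their log2 fold changes were -0.27 ± 0.10 (adjusted p = 0.0405) and -0.35 ± 0.10 (adjusted p = 0.0325). Pdk3, a kinase that switches off pyruvate dehydrogenase, stood at 57.3, 56.6, 57.1 and 58.8 CPM in control and at 48.5, 50.9, 56.8 and 53.6 CPM in NaCl libraries, where NaCl 7 overlapped the controls. Its log2 fold change was -0.13 ± 0.05 (adjusted p = 0.0485). These calls lie close to the threshold, and each was lost when single libraries were left out: Pfkfb4 without control 1, 2 or 3 or NaCl 5, 6 or 8 (0.0985, 0.0743, 0.0668, 0.121, 0.055 and 0.0586), P4ha1 without any control library or NaCl 6 (0.0943, 0.0564, 0.0699, 0.0848 and 0.0749), and Pdk3 without any library other than NaCl 7 (0.0542 to 0.148). Over all tested genes, 16.5% had every NaCl library above and 16.9% every NaCl library below every control library, and of the members 2 (Pfkm and Hif1a) and 2 (Pfkfb4 and P4ha1) did.

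**Figure D2:**
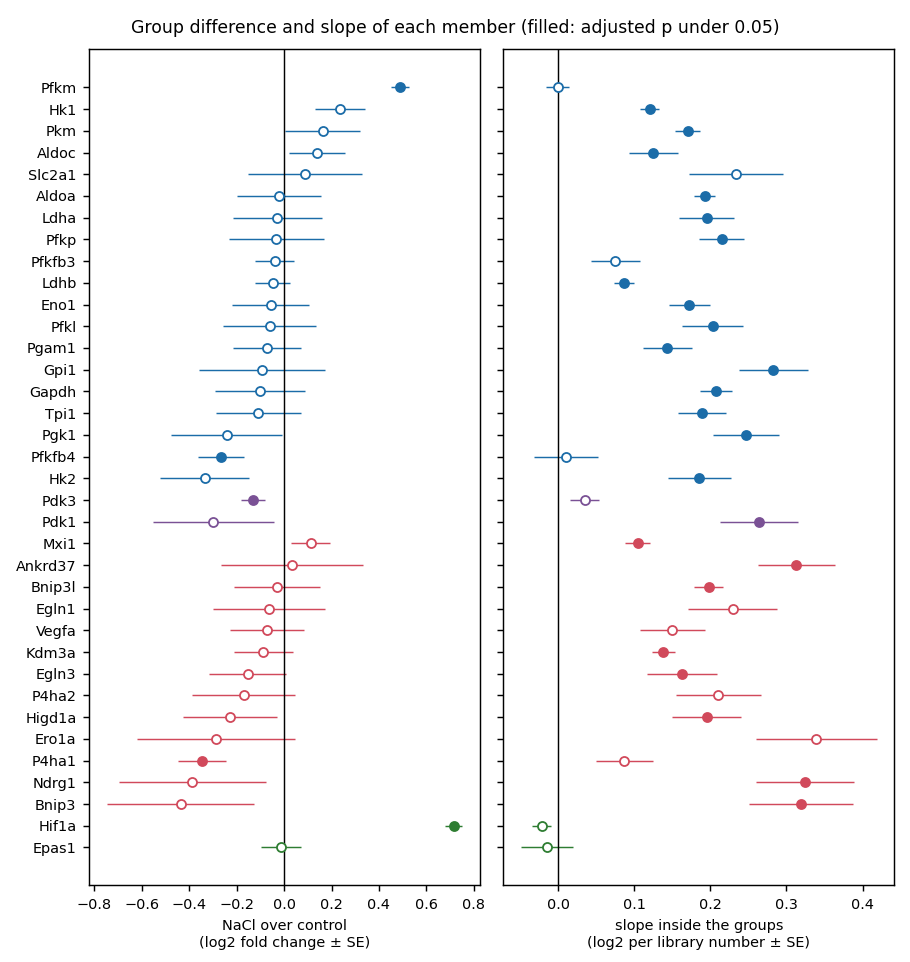
Left, log2 fold change of NaCl over control for each member; right, slope along the library number inside the groups; points with bars are estimates ± SE from edgeR, coloured by class (blue glycolytic, purple kinase, red other HIF target, green HIF alpha) and filled where the adjusted p was under 0.05. On the left 5 points are filled and most bars cross 0, on the right 24 are filled and all of these lie above 0.

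Inside each group the members followed the library number. A slope was fitted as the change in log2 level per step of the number, 1 to 4 in control and 5 to 8 in NaCl libraries, with the number centred in its group so that the group difference stayed in the fit. Of the 36 members 24 (66.67%) rose along the number and none fell, while 6.95% of all tested genes rose and 6.22% fell. By class, 15 of the 19 glycolytic members rose (median slope 0.19), 8 of the 13 other HIF targets (0.20), Pdk1 but not Pdk3, and neither alpha subunit, and the median over all genes was -0.0014. Scaled by library totals alone, 15 and 8 were again counted, but rising genes made up 35.5% of all genes called instead of 52.8%. The call depends on the libraries: without NaCl 8 the counts were 8 and 4, and the count of HIF targets was 5 without control 1, control 2, control 3 or NaCl 6.

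The gradient was not that of a few genes. In NaCl libraries 27 of the 36 members rose in CPM at every step from 5 to 8, as did 7.72% of all genes, and in control libraries 19 did from 1 to 4, as did 9.18%. NaCl 5 was the lowest NaCl library for 33 members and the lowest of all 8 for 29, and NaCl 8 was the highest NaCl library for 28. The ratio of NaCl 8 to NaCl 5 had a median of 1.61 over the glycolytic members and 1.84 over the other HIF targets, and that of control 4 to control 1 had a median of 1.27 in both classes. The spread inside the groups was therefore wide next to the difference between them: the median coefficient of variation was 11.45% in control and 21.33% in NaCl libraries. Neither the places of NaCl 5 and NaCl 8 nor the coefficients of variation were taken over all tested genes.

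**Figure D3:**
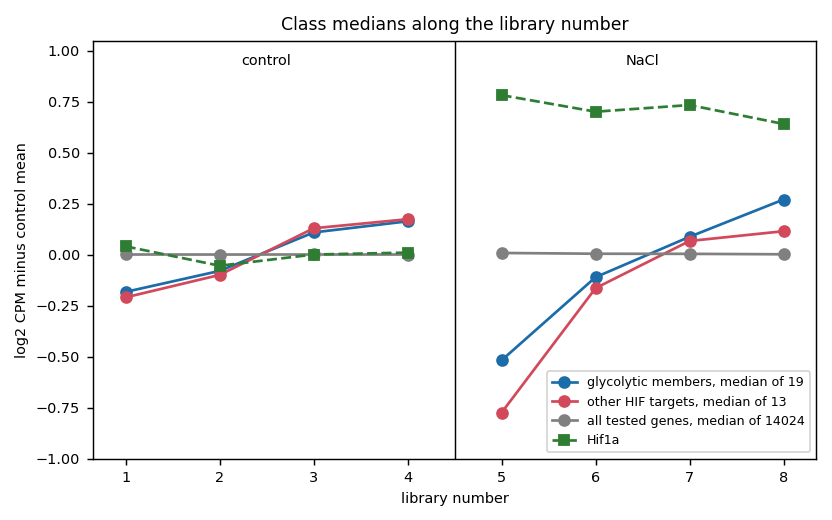
Median over each class of the log2 CPM minus the control mean, per library number, for the 19 glycolytic members (blue), the 13 other HIF targets (red) and all 14024 tested genes (grey), with Hif1a alone as green squares. Both classes climb from about -0.2 to 0.17 over libraries 1 to 4, start again lower at NaCl 5 (-0.52 and -0.77) and climb to 0.27 and 0.12, while all genes stay near 0 and Hif1a lies between 0.64 and 0.78 in the NaCl libraries.

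Slc2a1 (chromosome 4, 119108711 to 119137983, plus strand) encodes GLUT1, the transporter that brings glucose into most cells. It stood at 222, 236, 281 and 279 CPM in control 1 to 4 and at 166, 251, 318 and 347 CPM in NaCl 5 to 8. NaCl 5 was the lowest and NaCl 8 the highest of all 8 libraries, 2.10-fold apart, so the NaCl group enclosed the control group. The group difference was 0.09 ± 0.24 (log2, adjusted p = 0.821), and the slope of 0.23 ± 0.06 was not called (0.0738).

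The hexokinases trap glucose by phosphorylating it, Hk1 as the widespread form and Hk2 as the form that HIF induces. Hk1 stood at 419, 425, 494 and 495 CPM in control and at 462, 504, 571 and 622 CPM in NaCl libraries. Hk2 stood at 152, 155, 184 and 181 CPM in control and at 95.3, 122, 144 and 170.3 CPM in NaCl libraries. Both rose along the number, by 0.12 ± 0.01 and 0.19 ± 0.04 per step (adjusted p = 9.68e-08 and 0.0426). Neither was called between the groups, with log2 fold changes of 0.24 ± 0.11 for Hk1 (adjusted p = 0.135) and -0.34 ± 0.19 for Hk2 (0.224), the highest after Pfkm and the lowest of the glycolytic members. Their ratio differed more than either level: per length, Hk2 made up 34.1%, 34.3%, 34.7% and 34.3% of both in control 1 to 4 and 22.8%, 25.6%, 26.5% and 28.1% in NaCl 5 to 8. The share of Hk2 was nearly constant over the control libraries, lower in every NaCl library, and higher with each NaCl number. No test was made of these shares.

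**Figure D4:**
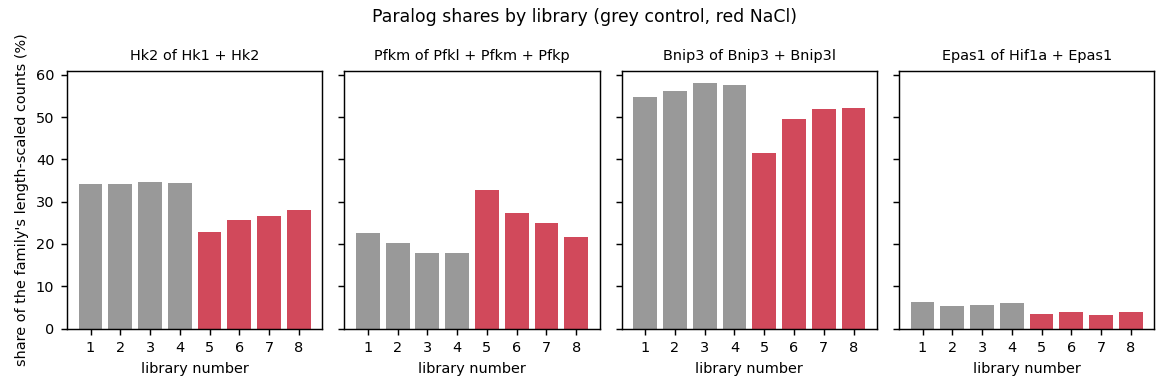
Share of length-scaled counts taken by 1 gene of its family, in percent, per library, control grey and NaCl red. Hk2 falls from about 34% to between 22.8% and 28.1%, Bnip3 from between 54.7% and 58.1% to between 41.6% and 52.2%, Epas1 from 5.31% or more to 3.86% or less, and the shares of Pfkm overlap.

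Gpi1, which turns glucose 6-phosphate into fructose 6-phosphate, had the steepest slope of the glycolytic members. It stood at 958, 1099, 1434 and 1412 CPM in control and at 726, 1025, 1311 and 1536 CPM in NaCl libraries, a 2.12-fold range inside the NaCl group. Its slope was 0.28 ± 0.05 (adjusted p = 0.0164), and its group difference was -0.09 ± 0.26 (0.827). Pgk1, which makes the first ATP of the pathway, followed with a slope of 0.25 ± 0.04 (0.0217). Its values were 1429.6, 1691, 1985 and 2038 CPM in control and 981, 1411, 1721 and 1924 CPM in NaCl libraries, and its log2 fold change was -0.24 ± 0.23 (adjusted p = 0.485). Gapdh, a common reference gene in RNA work and the enzyme of the oxidative step, stood at 2952, 3295, 3989.8 and 4079 CPM in control and at 2459.5, 3107, 3662 and 4120.4 CPM in NaCl libraries. Between the groups it differed by -0.10 ± 0.19 (0.734), yet inside the NaCl group it varied 1.68-fold and inside the control group 1.38-fold, with a slope of 0.21 ± 0.02 (adjusted p = 3.97e-04). The Gapdh slope was called in all 14 alternatives of that test.

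Pkm, which forms pyruvate, had the highest CPM of the members. It stood at 3452, 3762, 4432 and 4525 CPM in control and at 3494, 4371, 4870.4 and 5358 CPM in NaCl libraries, rising at every step in both. Its slope was 0.17 ± 0.02 (adjusted p = 1.04e-05) and its group difference 0.16 ± 0.16 (0.487). Aldoa, Aldoc, Tpi1, Pfkp, Pfkl, Pgam1, Eno1, Ldha and Ldhb also rose along the number, with slopes from 0.086 (Ldhb) to 0.22 (Pfkp), and none of these was called between the groups. Per length, Ldhb was the most abundant member at 5103 ± 439.9 TPM (SD, n = 4) in control libraries, above Gapdh at 3078 ± 448. Pfkfb3 at 7.51 ± 0.579 was the rarest. The lengths count every annotated exon base, 1570 for Ldhb and 4133 for Gapdh. By mean control CPM Gapdh was higher than Ldhb (3579 and 2253), so their order depends on the scaling by length. Ldhb and Ldha, the lactate dehydrogenase subunits, kept shares of 67.2% ± 0.797 and 32.8% in control and 67.1% ± 4.35 and 32.9% in NaCl libraries, with overlap. These shares rest on exon lengths of 1570 and 3310 bases, while the mean control CPM was 2253 and 2328. Pfkfb3, Pfkfb4 and Pfkm did not pass the slope test (adjusted p = 0.119, 0.924 and 0.99), nor did Slc2a1. For several enzymes part of the transcript matches pseudogenes or copies at 98% identity or more, 85.64% of Eno1 with Eno1b, 76.84% of Ldhb, 68.82% of Pgk1, 65.5% of Pkm, 43.1% of Pgam1, 35.66% of Gapdh and 27.32% of Gpi1, so their counts are uncertain where reads could be split.

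The pyruvate dehydrogenase kinases keep pyruvate out of the mitochondrial cycle, and Pdk1 is a form that HIF induces. Pdk1 stood at 205, 227, 273 and 287 CPM in control and at 123, 183, 232 and 266 CPM in NaCl libraries. It rose along the number by 0.26 ± 0.05 per step (adjusted p = 0.0296), and its group difference was -0.30 ± 0.26 (0.426). The slope of Pdk3 was 0.035 ± 0.02 (0.255). Pdk3 was thus called between the groups and not along the number, and Pdk1 along the number and not between the groups. The difference of the kinases was not tested.

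Among the other HIF targets, the mitophagy receptors Bnip3 and Bnip3l mark mitochondria for removal. Bnip3 stood at 274, 324, 406 and 416 CPM in control and at 140.1, 239, 318 and 351 CPM in NaCl libraries. Bnip3l stood at 387, 429, 499.7 and 525 CPM in control and at 335, 413, 505 and 548 CPM in NaCl libraries. Both rose at every step in both groups, with slopes of 0.32 ± 0.07 (adjusted p = 0.0405) and 0.20 ± 0.02 (8.1e-06). Bnip3 had the lowest log2 fold change of all members, -0.44 ± 0.31, which was not called (0.34), and that of Bnip3l was -0.03 ± 0.18 (0.921). Per length Bnip3 made up 56.6% ± 1.51 of the pair in control and 48.8% ± 4.92 in NaCl libraries, every NaCl library being lower. Of the transcripts, 68.56% of Bnip3 and 34.73% of Bnip3l match other genes or pseudogenes, and 22.25% of the exon bases of Bnip3 are overlapped by Gm45507.

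Ero1a, an oxidase that helps form disulfide bonds in the endoplasmic reticulum, had the highest slope of the members. It stood at 270.3, 321, 422 and 419 CPM in control and at 149, 262, 375 and 387 CPM in NaCl libraries, a 2.59-fold range in the latter. The slope of 0.34 ± 0.08 had an adjusted p of 0.0521 and was not called, since the libraries scatter widely around it. Ndrg1, a stress-response gene long used as a marker of hypoxia, stood at 323, 365, 502 and 494 CPM in control and at 179, 284, 396 and 429 CPM in NaCl libraries. Its slope was 0.32 ± 0.06 (adjusted p = 0.0323), and its group difference of -0.39 ± 0.31 was not called (0.399). Ankrd37, an ankyrin repeat gene that responds strongly to HIF, stood at 27.1, 32.1, 37.8 and 42.7 CPM in control and at 19.9, 31.1, 44.0 and 47.5 CPM in NaCl libraries. It rose by 0.31 ± 0.05 per step (0.0066), and with means of 34.9 ± 6.78 and 35.6 ± 12.6 CPM (SD, n = 4) the groups were level at 0.03 ± 0.30 (0.945). Part of its exons (26.38%) is overlapped by Lrp2bp and Ufsp2.

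Vegfa, the growth factor for blood vessels and the best known HIF target, stood at 129, 150.1, 170.1 and 158 CPM in control and at 107, 143, 164 and 163 CPM in NaCl libraries. Library 1 was the lowest control and library 5 the lowest of all, but the last step fell in both groups, and neither the slope of 0.15 ± 0.04 (adjusted p = 0.0895) nor the group difference of -0.07 ± 0.16 (0.771) was called. Mxi1, a repressor related to the Myc network, was the HIF target with the highest log2 fold change, 0.11 ± 0.08 (0.34). Its values were 77.5, 77.1, 89.3 and 95.3 CPM in control and 80.2, 91.2, 95.6 and 99.5 CPM in NaCl libraries, and it rose by 0.10 ± 0.02 per step (2.13e-05). P4ha1 had the lowest slope of this class, 0.087 ± 0.04 (0.222): its control libraries were level and its NaCl libraries were not. Egln3, Kdm3a and Higd1a also rose along the number, with slopes from 0.14 to 0.20, and Egln1, the main oxygen sensor, and P4ha2 had slopes of 0.23 and 0.21 that were not called (0.0686 and 0.0763).

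The alpha subunits showed no gradient. The slope of Hif1a was -0.022 ± 0.01 per step (adjusted p = 0.29) and that of Epas1 -0.014 ± 0.03 (0.857). In the NaCl group Hif1a stood highest in NaCl 5, the library in which 29 members had the lowest level of all 8.

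The slope was larger in the NaCl than in the control group for 32 of the 36 members, with medians of 0.24 and 0.12 per step. Over all tested genes it was larger for 7171 of 14024, with medians of -0.0020 and -0.00026. The difference of slopes was called for 5 members, Hk2, Tpi1, Pgam1, Higd1a and P4ha1, out of 13 genes in the whole table (0.0927%). In Hk2 the slope was 0.10 in control and 0.28 in NaCl libraries, a difference of 0.17 ± 0.03 (adjusted p = 0.00291). In P4ha1 it was 0.015 and 0.16, a difference of 0.15 ± 0.03 (0.0115). The other differences were 0.13 ± 0.03 for Tpi1 (0.0219), 0.13 ± 0.02 for Pgam1 (0.0125) and 0.19 ± 0.04 for Higd1a (0.0364). At an unadjusted p under 0.05 the counts were 19 members and 1088 genes, and with DESeq2 7 members and 29 genes were called. The median difference of the members was 0.045 without NaCl 5 and between 0.097 and 0.19 without any other library, and no member was called without NaCl 5, control 1 or control 4, whereas 3 to 16 were called without another library (16 without NaCl 8).

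**Figure D5:**
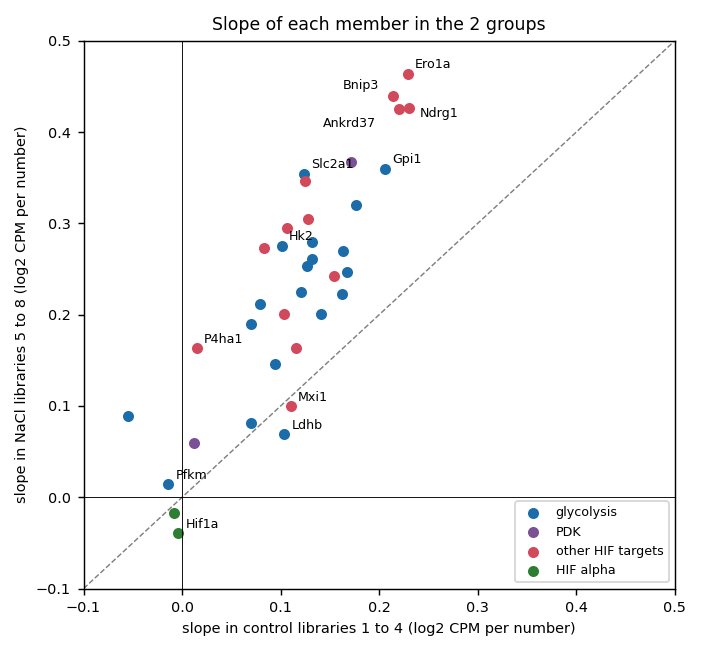
Slope of each member in the control libraries (horizontal) against its slope in the NaCl libraries (vertical), both in log2 CPM per library number, coloured by class; the dashed line marks equal slopes. Of the 36 points 32 lie above the line, Ero1a, Bnip3, Ankrd37 and Ndrg1 lie farthest up, and Hif1a, Epas1 and Pfkm lie near 0 on both axes.

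Because NaCl libraries carry the higher numbers, the comparison of the groups depends on how the number is treated. With the number centred in its group as a covariate, 5 members were higher (Hk1, Pfkm, Pkm, Mxi1 and Hif1a) and 6 lower (Hk2, Pfkfb4, Pdk3, Bnip3, P4ha1 and Kdm3a), against 21% and 22% of all genes. With the number as 1 straight drift from 1 to 8 in the fit, 2 members were higher (Pfkm and Hif1a) and 27 lower, against 11.5% and 12.6% of all genes, and the median log2 fold change was -0.80 for the glycolytic members and -1.02 for the other HIF targets. The numbers of the groups do not overlap, so this fit carries a line measured inside the groups across the step from 4 to 5, and a shift at that step and an effect of NaCl cannot be told apart. Measured directly, the median of the glycolytic members relative to the control mean was 0.16 in control 4 and -0.52 in NaCl 5, and that of the other HIF targets was 0.17 and -0.77. Compared at the ends, NaCl 8 lay above control 4 in 14 of the 19 glycolytic members and in 5 of the 13 other HIF targets, and NaCl 5 lay below control 1 in 15 and 12.

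Other values moved with the number or the groups. The TMM factors fell from 1.003 to 0.990 over control 1 to 4 and from 1.016 to 0.990 over NaCl 5 to 8. The glycolytic members held 2.13%, 2.33%, 2.68% and 2.76% of all counts in control 1 to 4 and 1.87%, 2.33%, 2.64% and 2.93% in NaCl 5 to 8. Of the 16 tested markers of collecting duct and renal epithelium 7 rose along the number, among them Krt7, Krt8, Krt18, Krt19 and Epcam, and none fell. Of the 6 fibroblast markers none rose and 1 fell. Summed over 19 of its 20 genes in the table, the epithelial list stood at 1566 to 1998 CPM in control and at 2543 to 2840 CPM in NaCl libraries, led by Cdh16 (639 and 1380 CPM). Of its 16 tested genes 6 were called higher with NaCl and 2 lower, Gata3 and Tfcp2l1 (log2 fold change -0.44 and -0.38). Krt7, Krt8, Krt18 and Krt19 lay below 0 and were not called. The fibroblast list summed to 3128 to 3635 and 2820 to 3254 CPM, most of it Col1a1. With NaCl 2 fibroblast markers fell, Col1a1 and Pdgfra, and 1 rose, Pdgfrb (log2 fold change 0.70, adjusted p = 1.08e-06). The 2 leukocyte markers in the table summed to 5.95 to 7.19 CPM in control and 14.9 to 15.3 CPM in NaCl libraries, through Ptprc (4.05 and 13.5 CPM, adjusted p = 5.91e-10). Cd68, the other of these markers, went the other way, from 2.41 to 1.69 CPM, and was not called (log2 fold change -0.51, adjusted p = 0.0573). The 3 proximal tubule markers summed to 274 to 327 and 1012 to 1039 CPM, through the water channel Aqp1 (118 and 858 CPM, adjusted p = 3.61e-18). Lrp2 (185 and 162 CPM) and Cubn (2.16 and 2.45 CPM) were not called. The 2 endothelial markers summed to at most 0.870 CPM in any library. With library totals alone as the scaling, the median slopes were 0.18 for the glycolytic members and 0.19 for the other HIF targets. The part of depth or cell markers in the gradient or the group difference was not tested.

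Other genes of the same pathways were taken from lists that, like the members, were drawn up with earlier results of these data known. Of 20 further tested glycolysis genes 4 rose and 3 fell with NaCl, and along the number 3 rose and 2 fell. The shares called with NaCl are close to the 16.9% and 17.2% of all tested genes, so the single genes named here do not set the list apart. The monocarboxylate transporter Slc16a1, which carries lactate and pyruvate, fell from 50.7 ± 4.83 to 32.6 ± 0.919 CPM (SD, n = 4; log2 fold change -0.64 ± 0.06, adjusted p = 6.2e-07). Pgm2 and Slc16a7 fell by 0.32 and 0.30 on the log2 scale. Galm, which readies glucose for hexokinase by turning its ring form, rose from 10.9 ± 1.39 to 19.96 ± 1.97 CPM (0.87 ± 0.10, 2.5e-06), and the muscle enolase Eno3 and Ldhd rose by 0.59 and 0.44. Of 16 genes of pyruvate entry and glucose return 4 rose, led by pyruvate carboxylase Pcx at 0.94 ± 0.09 (3.96e-06) with Pdp1 and Pdpr at 0.28 and 0.24, and 3 fell, Fbp2, Pck2 and Pdha1 by 0.60, 0.25 and 0.12, while 1 rose and 1 fell along the number.

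Of 36 further tested genes of the HIF pathway 5 rose and 7 fell with NaCl, a share near the background of 16.9% and 17.2%. Along the number 18 rose and 2 fell, against 6.95% and 6.22% of all tested genes, with a median slope of 0.13. The genes that rose along the number include Adm, Ddit4, Bhlhe40, Gbe1, Gys1, Fam162a and Vhl, none of which is a member. Among the genes that fell, Nfil3 went from 61.1 ± 6.56 to 42.3 ± 4.93 CPM with NaCl (SD, n = 4; log2 fold change -0.53 ± 0.09, adjusted p = 0.00132), and Stc2 fell by 0.34. The carbonic anhydrase Car12 rose by 0.87 ± 0.12 (7.28e-04), the collagen crosslinking enzyme Lox by 0.80 ± 0.04 (3.04e-10) and Angptl4 by 0.79 ± 0.12 (6.04e-05). Lox stood at 199.9 ± 9.44 CPM in control and 347 ± 16.3 CPM in NaCl libraries without overlap, and Lox and Angptl4 were the genes of the list that fell along the number.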

How the data were processed

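Total RNA of the IMCD line was sequenced as 8 bulk libraries, 4 per group. The authors deposited whole-number counts per Ensembl gene, used here; their table of normalized values was not used. Per the submitters' processing notes, Trim Galore 0.6.7, STAR, DESeq2 1.34.0 and mm10 were involved; the counting program and its strandedness are not given in the sources used here, so genes overlapping on opposite strands cannot be separated. The count test was that of edgeR 4.0.16 under R 4.3.3 (quasi-likelihood, TMM, filterByExpr at a minimum count of 10, two-sided, adjusted p under 0.05), which removed 1264 genes with 0.0191% of counts. Totals of 35.29 to 47.57 M counts set the precision; intervals were not computed from counts, since PCR copies are not independent molecules. SE is the log2 estimate divided by the root of the F value. TPM and the paralog shares used the length of all annotated exons of a gene in GENCODE M21 (GRCm38). The order of genes by TPM and the size of a share depend on that choice. Sharing was measured with blastn 2.17.0 (75 bases, 98% identity). Promoters are RefSeq windows. The fits were tested on simulated data. Group changes of 0.5 and 1 on the log2 scale were called in 74.5% and 93% of the changed genes. Slopes of 0.15 and 0.3 were called in 58.6% and 74.7%, so a gene not called may still have a slope. False calls made up 6.2% of the group calls and 5.0% of the slope calls.

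The members and lists were chosen with earlier results of these data known. Values in every library are given for Slc2a1, Gapdh, Hif1a, Epas1 and Vegfa, and in each class for the 3 members with the highest and lowest fold change and the 2 with the highest and lowest slope; of the related lists the 3 highest and lowest called genes. A gene that this rule names is not reported here. Ero1a is listed as Ero1l in GENCODE M21. Alternatives were other scalings, filters, DESeq2 1.42.0, limma-voom 3.58.1, a threshold of 0.01, the library number as covariate and leaving out each library; the last for the difference of slopes was added after seeing the data.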

Additional observations from a re-analysis of the deposited data

Results flagged for a closer look

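Pfkfb3, a paralog of Pfkfb4, stood apart in 1 library: control 4 held 17.9 CPM, and the other control libraries held 15.1 to 15.5 CPM. Of 72 groups of 4 values examined in this way, chance would give about 3.6, and 1 was found.

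The slope along the library number differed between NaCl and control libraries, by the test of the difference, in Hk2 by 0.173, in Tpi1 by 0.126, in Pgam1 by 0.132, in Higd1a by 0.185 and in P4ha1 by 0.149 (log2 per number, NaCl minus control). Tpi1, triose phosphate isomerase, stood at 1381, 1518, 1715 and 1776 CPM in control and at 1071, 1404, 1612 and 1837 CPM in NaCl libraries. Pgam1, a phosphoglycerate mutase, stood at 406, 421, 458 and 474 CPM in control and at 317, 403, 458 and 497 CPM in NaCl libraries. Higd1a, a small mitochondrial protein induced by hypoxia, stood at 63.7, 73.2, 79.8 and 79.1 CPM in control and at 43.0, 57.8, 72.0 and 79.1 CPM in NaCl libraries. In Tpi1 and Pgam1 NaCl 8 lay above every control library, in Higd1a it lay level with control 4, and in all 3 genes NaCl 5 lay below every control library. Without NaCl 5 the differences were 0.142 (Hk2), 0.0672 (Tpi1), 0.0714 (Pgam1), 0.119 (Higd1a) and 0.102 (P4ha1), and none was called (adjusted p = 0.645 to 0.956, edgeR).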

How the results depend on the processing

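Hif1a and Pfkm were called higher in all 18 alternatives. Pdk3 was not called lower with library totals alone (adjusted p = 0.0594, edgeR) or with limma-voom (0.0501). Pfkfb4 was not called with a linear drift (0.279, edgeR). With limma-voom 2 glycolytic members were higher and 2 lower, and all 13 other HIF targets rose along the number. At a threshold of 0.01, 1545 genes were higher and 1600 lower, with 0 glycolytic members and 0 other HIF targets lower; 570 genes rose and 394 fell along the number, with 8 glycolytic members and 4 other HIF targets rising. With the number centred in its group, 3 glycolytic members were higher and 2 lower, and 1 other HIF target was higher and 3 lower. With a linear drift, 14 and 11 were lower, the medians were -0.80 and -1.02, and Pkm (-0.53), Hk1 (-0.25), Ankrd37 (-1.26) and Mxi1 (-0.31) turned below 0 and were called, as Slc2a1 (-0.89) and Aldoc (-0.37) turned below 0 without a call; the cause was not tested. Scaled by library totals alone, 1327 genes fell along the number. With DESeq2 the slopes of 29 genes differed between the groups.

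Leaving out each library gave 1 to 3 glycolytic members higher and 0 to 1 lower, 0 to 1 other HIF targets lower, and along the number 8 to 15 glycolytic members, 4 to 10 other HIF targets and 575 to 982 genes rising and 330 to 888 genes falling. The difference of slopes was then called for 0 to 16 members and 0 to 110 genes. The fewest rising genes came without NaCl 8 and the fewest falling ones without control 1. For single members, 548 of the group values and 416 of the slope values kept their direction and side of the threshold. Of the other group values 24 lost a call, 31 gained one, 41 turned direction without a call and 4 turned direction and were called. Of the other slope values 63 lost a call, 17 gained one and 8 turned direction without a call. No paired analysis was made, because the groups share no replicate number and the labels give no pairing.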
